A study of Mus musculus with 24 samples.

Results

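The histone deacetylase family was taken as the 10 genes Hdac1, Hdac2, Hdac3, Hdac4, Hdac5, Hdac6, Hdac8, Hdac9, Hdac10 and Hdac11, found by name among the 27962 gene names on the array. They were read by 16 of 41174 probes, each printed as a single spot, and where a gene had several, the brightest on average was its main probe. Colon and liver RNA came from 12 female C57BL/6 mice aged 12 weeks, whose dams ate a high-fat diet poor in folate and selenium from 7 days before mating and through gestation and lactation. From weaning, at about 28 days of age, 6 offspring stayed on that diet (HF-low-low) and 6 were moved to one as rich in fat that held sufficient folate and selenium (HF-low-suf). There was no low-fat group, so all mice shared the fat content and the maternal diet. RNA of whole tissue was labelled with Cy3. An equimolar pool of the intestinal and the liver RNA of all mice was labelled with Cy5 on the same array. This gave 24 arrays, 6 per tissue and diet. Every level given here is the log2 ratio of the sample to that pool, so a value of 0 is the level of the pool and the ratios of different genes are not compared with each other. In whole tissue, fewer cells of a type and less RNA per cell cannot be told apart.

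Histone deacetylases remove acetyl groups from lysine residues of histones and of other proteins, against the action of the histone acetyltransferases, and deacetylated histone tails are a feature of condensed, less transcribed chromatin. Hdac1, Hdac2, Hdac3 and Hdac8 form class I. The first 2 work inside the NuRD, Sin3 and CoREST corepressor complexes and Hdac3 inside the NCoR/SMRT complex. Hdac4, Hdac5, Hdac7 and Hdac9 form class IIa, which shuttle between nucleus and cytoplasm and bind the MEF2 transcription factors. Hdac6, a mainly cytoplasmic deacetylase of tubulin, and Hdac10, which acts on acetylated polyamines, form class IIb, and Hdac11 alone forms class IV. The sirtuins, class III, are a separate, NAD-dependent family.

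The sequences of 4 probes are shown because Hdac2, Hdac8 and Hdac9 were read by several probes whose brightness or results differed. Each was copied from the array files, runs 5′ to 3′, lies on mm7 coordinates as those files give them, and has at least 1 reading frame without a stop codon. They are given in lower case with nothing marked.
Hdac2 probe A_51_P116007, plus strand, chr10:36774774-36774908: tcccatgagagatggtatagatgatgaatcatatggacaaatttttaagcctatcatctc
Hdac8 probe A_52_P464062, minus strand, chrX:97635086-97729989: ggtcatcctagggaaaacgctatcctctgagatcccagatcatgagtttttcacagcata
Hdac8 probe A_51_P481191, minus strand, chrX:97832340-97832399: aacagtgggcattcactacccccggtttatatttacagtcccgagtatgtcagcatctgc
Hdac9 probe A_51_P204031, minus strand, chr12:32232465-32232524: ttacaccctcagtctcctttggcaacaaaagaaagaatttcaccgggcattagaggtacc
The Hdac2 probe and the Hdac8 probe A_52_P464062 have 60 bases but span 135 and 94904 bases of the genome, so they cross introns. The 2 Hdac8 probes read different parts of the same transcript, NM_027382.

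The labels of the tissues were checked against marker genes. All 4 hepatocyte markers found on the array (Apoa1, Ttr, Cps1 and Cyp3a11) were higher in liver, by 5.46 to 6.22 on the log2 scale, and all 6 colon epithelium markers were lower, with differences from -7.29 to -4.08. The 6 smooth muscle markers were lower in liver as well. In Cy3 the median spot was 3.78 to 7.20 times as bright as its background, and log2 ratios of 2 replicates of a group correlated at 0.76 to 0.97 over bright probes. The arrays of colon HF-low-suf replicate 5 and liver HF-low-suf replicate 4 stood apart, with a median Cy5 signal of 18.1 and 12.7 times background against at most 7.54 on the other arrays. Differences between the tissues and between the diets are given without them as well.

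How many deacetylases could be read differed by gene. Whether a probe was well above background on an array was read from the Cy3 mark of the scanner software. The main probes of 5 members, Hdac1, Hdac3, Hdac5, Hdac6 and Hdac10, were well above background on all 24 arrays, as were 9113 probes of the array in all. Hdac4 was so on 12 colon and 10 liver arrays and Hdac11 on 11 and 9. Hdac2 was so on 6 colon and 2 liver arrays, Hdac8 on 6 and 3, and Hdac9 on 5 and 1. Among these 3 dim members, a difference that did not pass the test says little. No probe of a member was saturated on any array. The SD within a group was 0.17 for Hdac1, 0.15 for Hdac3, 0.15 for Hdac5, 0.24 for Hdac6 and 0.22 for Hdac10, against a median of 0.26 over the 9113 bright probes. The SD was 0.32 for Hdac4, 0.34 for Hdac8, 0.38 for Hdac2 and 0.42 for Hdac11.

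**Figure D1:**
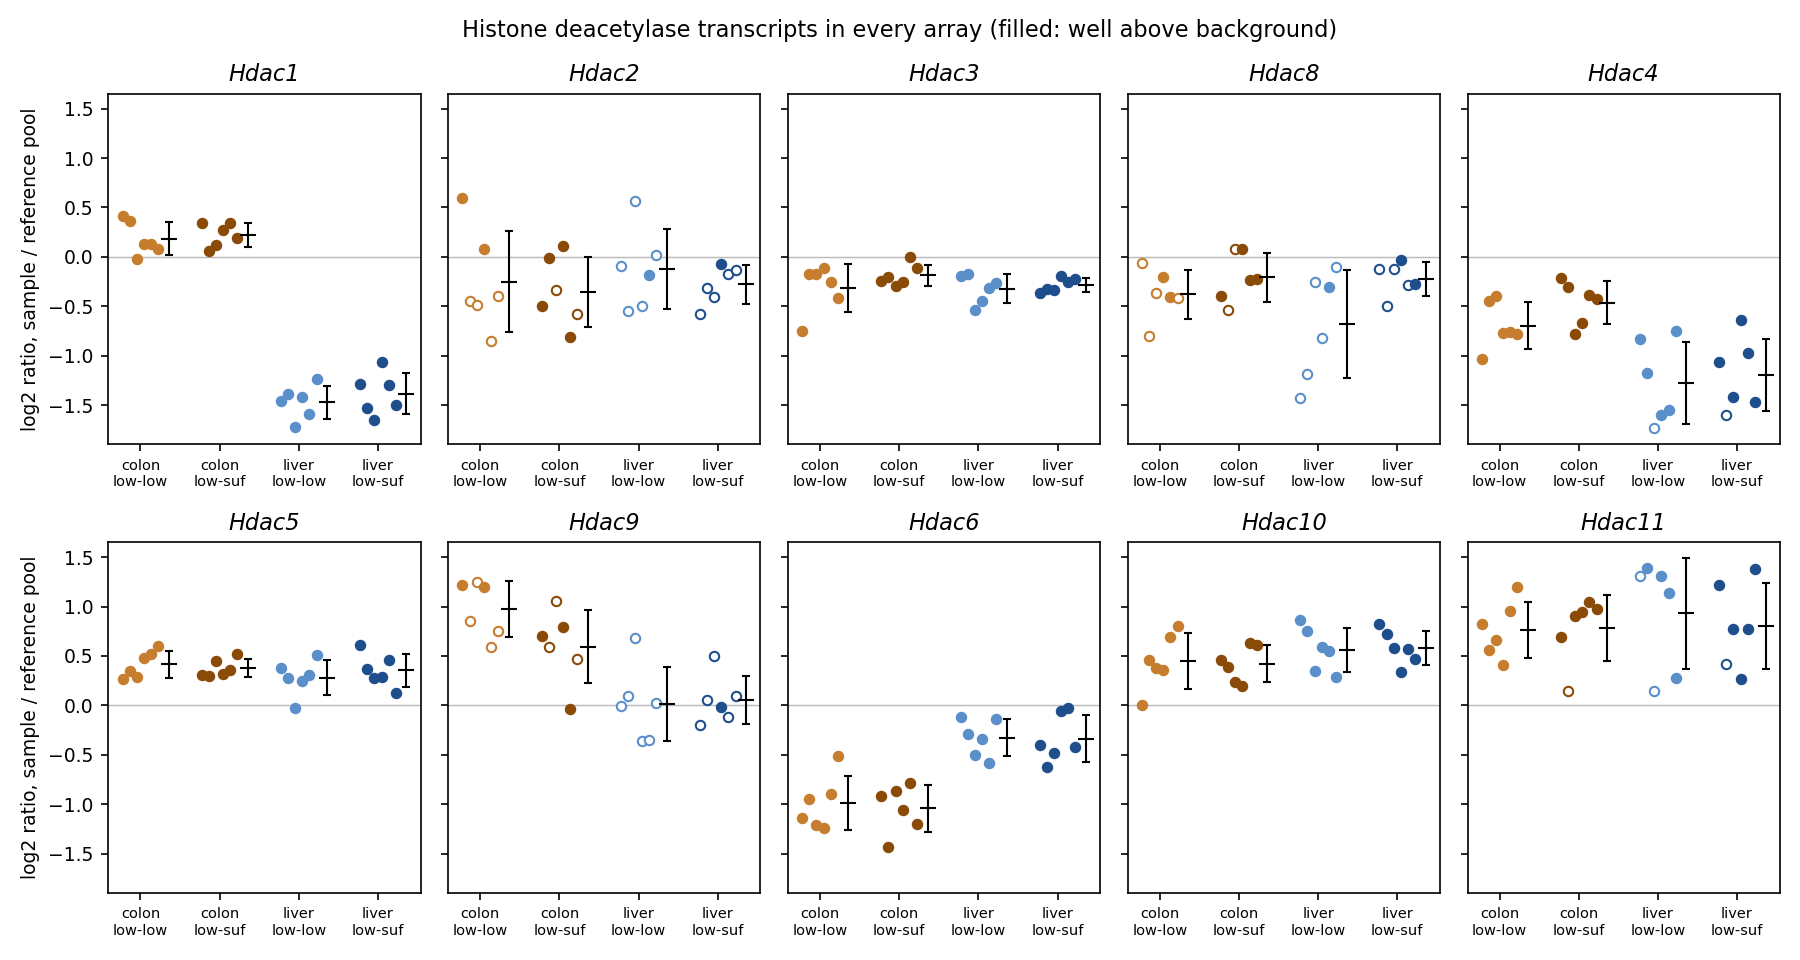
The log2 ratio of sample to reference pool (vertical axis) of the main probe of each of the 10 members on every array, in colon and liver of mice on HF-low-low and HF-low-suf. Filled points were well above background, open points were not, and bars give the mean and SD of 6 arrays. Hdac1 separates the tissues without overlap, Hdac6 lies higher in liver and Hdac4 and Hdac9 lie lower, while the diets overlap for every gene.

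The first comparison asked how the deacetylases differed between liver and colon of the same mice. Of the 10 members, 3 were lower in liver (Hdac1, Hdac4 and Hdac9), 1 was higher (Hdac6) and 6 did not pass the test, which was limma with the mouse as a random block and a Benjamini-Hochberg adjusted P below 0.05 over all 41174 probes. Of all probes, 19.4% were called higher and 19% lower in liver, so a call between these tissues was common. Of those calls 50.5% were higher in liver, against 32.9% under median centring in place of loess. Among the 9113 probes well above background on every array, 41.5% were higher and 31.4% lower, beside which the 5 members of that brightness gave 1 higher (Hdac6) and 1 lower (Hdac1). The median difference over the members was -0.06, against 0.02 over all probes.

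Hdac1, a catalytic subunit of the NuRD, Sin3 and CoREST complexes, differed between the tissues without overlap. The log2 ratio was lowest at -0.02, median 0.13 and highest at 0.41 in colon HF-low-low, and 0.06, 0.23 and 0.34 in colon HF-low-suf. In liver it was -1.72, -1.44 and -1.24 on HF-low-low and -1.64, -1.39 and -1.07 on HF-low-suf. Every colon lay above every liver. How many of all probes separate the tissues in this way was not counted. The difference, liver minus colon, was -1.63 (SE 0.08, 95% confidence interval -1.79 to -1.47), a level 3.09-fold lower in liver, with an adjusted P of 5.25e-16 by limma. All 12 mice had less in liver, and the exact two-sided sign-flip permutation test over the mice gave P = 0.000488, the smallest value its 4096 sign patterns allow. The difference was -1.65 ± 0.19 (SD, n = 6) in mice on HF-low-low and -1.60 ± 0.15 in mice on HF-low-suf. It was -1.72 ± 0.10 (SD, 6 mice) on the 3 slides of one scanning day and -1.54 ± 0.17 on the 3 of the other. The probe (A_51_P507380) lies on the minus strand at chr4:128960910-128960981 of mm7. The RefSeq gene table holds a pseudogene, Hdac1-ps, on another chromosome, and whether the probe also binds RNA from it was not tested.

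Of 6 proliferation markers, 4 were lower in liver (Mki67, Top2a, Cdc20 and Mcm5), none was higher and 2 did not pass (Ccnb1 and Bub1), beside 19% of all probes called lower. In liver Top2a, Ccnb1 and Bub1 stayed near background on all 12 arrays. The mean of the list lay between -1.06 and 0.07 in the colons and between -2.66 and -0.88 in the livers. Colon epithelium markers ran between 0.70 and 1.21 in the colons and between -5.01 and -3.84 in the livers. The part of these cells in the difference of Hdac1 was not tested.

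Hdac4, a class IIa enzyme known for restraining MEF2 target genes in muscle, was lower in liver with overlap. In colon its log2 ratio was lowest at -1.03, median -0.76 and highest at -0.39 on HF-low-low, and -0.78, -0.41 and -0.21 on HF-low-suf. In liver it was -1.73, -1.36 and -0.75 on HF-low-low and -1.59, -1.24 and -0.64 on HF-low-suf. The livers of both diets reached into the range of the colons. The difference was -0.65 (SE 0.12, 95% confidence interval -0.91 to -0.40), 1.57-fold lower in liver, with an adjusted P of 7.75e-05 by limma and an exact sign-flip P of 0.00391 over 12 mice. It was negative in 9 of 12 mice, since 3 had slightly more in liver. It was -0.78 on the slides of one scanning day and -0.53 on those of the other, and -1.05 with median centring in place of loess. The probe (A_51_P417839) lies on the minus strand at chr1:91840786-91840845.

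Hdac9 was lower in liver by its brightest probe, and 3 other probes did not show it. Hdac9 is a class IIa gene known to give, besides the full enzyme, a shorter protein without the catalytic domain, listed among its RefSeq synonyms as Mitr. By the main probe (A_52_P411780, minus strand, chr12:32214715-32214774) the log2 ratio in colon was lowest at 0.59, median 1.03 and highest at 1.25 on HF-low-low, and -0.03, 0.65 and 1.06 on HF-low-suf. In liver it was -0.35, 0.01 and 0.68 on HF-low-low and -0.20, 0.02 and 0.50 on HF-low-suf. The tissues overlapped, but all 12 mice had less in liver than in colon. The log2 difference was -0.75 (SE 0.12, 95% confidence interval -0.99 to -0.51), with an adjusted P of 5.95e-06 by limma and an exact sign-flip P of 0.000488. The signal was well above background on 5 colons and 1 liver only, and that liver (HF-low-suf replicate 4) was on an array with very bright Cy5. The size of the difference therefore rests on signals at background and no fold is given. It was -0.76 on the slides of one scanning day and -0.75 on those of the other, and -2.0 in the signals processed by the scanner software.

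The 3 other Hdac9 probes were dimmer still. Probe A_51_P204031, of the same transcript (NM_024124) and shown above, was well above background on 1 colon and no liver (adjusted P = 0.43 by limma). Probes A_51_P255467 (chr12:31894641-31894700) and A_52_P76792 (chr12:31891246-31891277), both of another transcript (AK173017), were so on 1 colon and on none (adjusted P = 0.85 and 0.90). For the last of these the spot of liver HF-low-suf replicate 4 was dropped as an outlier, which left 11 mice. Since liver lay at background for all 3, no fold is given for them.

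Hdac6, the tubulin deacetylase, was the member that was higher in liver. In colon its log2 ratio was lowest at -1.24, median -1.04 and highest at -0.51 on HF-low-low, and -1.43, -0.99 and -0.78 on HF-low-suf. In liver it was -0.58, -0.32 and -0.12 on HF-low-low and -0.62, -0.41 and -0.03 on HF-low-suf. A single colon, on HF-low-low, reached into the range of the livers. The difference was 0.68 (SE 0.09, 95% confidence interval 0.49 to 0.88), 1.61-fold higher in liver, with an adjusted P of 8.21e-07 by limma. It was positive in all 12 mice (exact sign-flip P = 0.000488), and was 0.66 ± 0.28 (SD, n = 6) on HF-low-low and 0.71 ± 0.22 on HF-low-suf. Both scanning days gave 0.68. With median centring in place of loess it was 0.28 and did not pass the test (adjusted P = 0.12 by limma). Under that scaling the median difference of the probes well above background on all arrays was -0.26, against 0.12 with loess. The probe (A_51_P449361) lies on the minus strand at chrX:6363458-6363517.

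**Figure D2:**
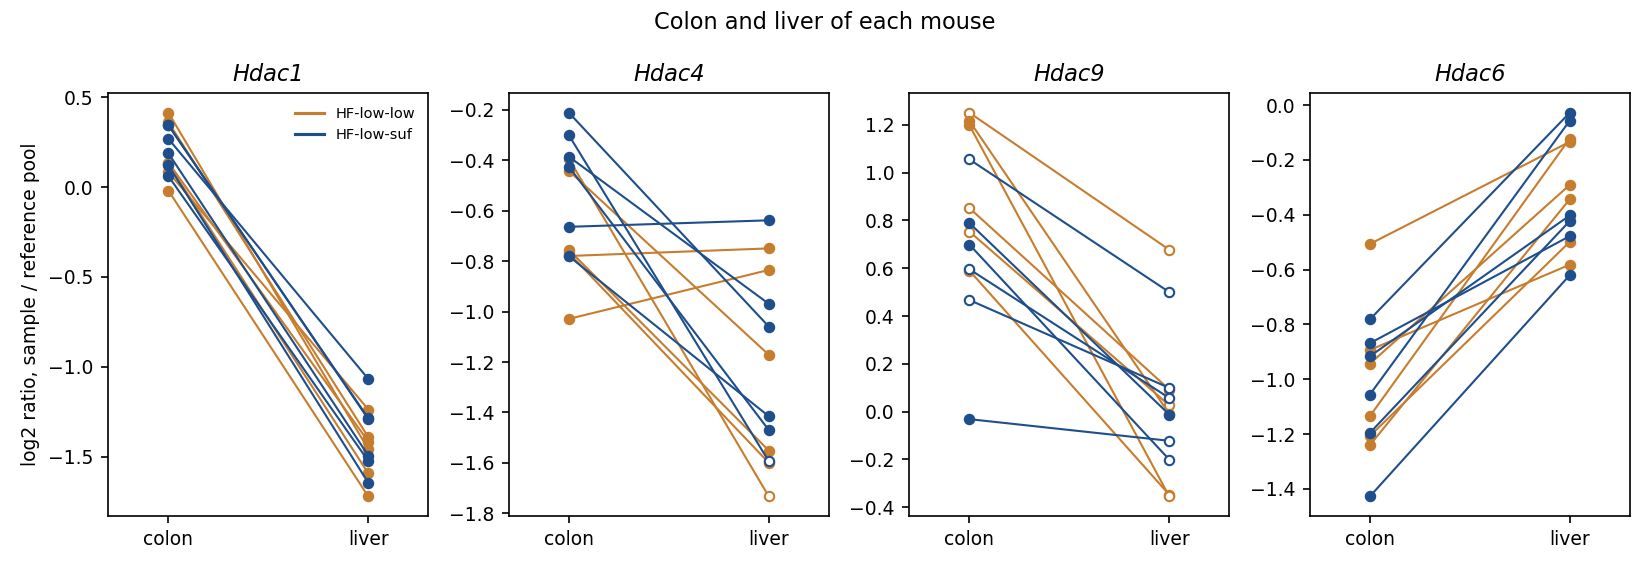
The log2 ratio of sample to reference pool (vertical axis, its range differing by panel) in colon and liver of each mouse for the 4 members that passed the test, with a line joining the tissues of a mouse and colours for the diets. Lines fall in all 12 mice for Hdac1 and Hdac9 and in 9 of 12 for Hdac4, and rise in all 12 for Hdac6; open points were not well above background.

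The other 6 members did not pass the test with loess, and their intervals are given. Hdac3, the catalytic subunit of the NCoR/SMRT complex, ran from -0.75 to -0.0048 in colon and from -0.54 to -0.17 in liver. Its difference was -0.05 (95% confidence interval -0.21 to 0.10, adjusted P = 0.67 by limma). Hdac5, a class IIa enzyme, ran from 0.27 to 0.60 in colon and from -0.03 to 0.61 in liver, with a difference of -0.08 (-0.23 to 0.07, adjusted P = 0.47). With loess neither interval reached beyond 0.23 on the log2 scale in either direction, whereas with median centring Hdac3 was at -0.48 and Hdac5 at -0.50 and both were called. Hdac10 was read by 2 bright probes, of which the main one (A_51_P502764) gave 0.14 (-0.05 to 0.33, adjusted P = 0.28) and the other (A_52_P577361) 0.04 (-0.20 to 0.28, adjusted P = 0.85). The scanning days ran opposite ways, with 0.36 and -0.08 for the main probe and 0.38 and -0.31 for the other.

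Hdac11 ran from 0.15 to 1.19 in colon and from 0.15 to 1.39 in liver, and its difference was 0.09 (95% confidence interval -0.22 to 0.40, adjusted P = 0.71 by limma). Hdac2, the close relative of Hdac1 in the same complexes, ran from -0.85 to 0.59 in colon and from -0.58 to 0.57 in liver by the probe shown above. Its difference was 0.10 (-0.19 to 0.39, adjusted P = 0.65), and its second probe (A_52_P46504) was not well above background on any array. Hdac8, a class I enzyme that deacetylates cohesin, gave -0.16 (-0.42 to 0.10, adjusted P = 0.37) by the brighter of its probes. Its second probe, well above background on 3 colons and 1 liver, gave 0.04 (-0.20 to 0.27, adjusted P = 0.86).

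In the signals processed by the scanner software, median centred without loess, 7 members were called in place of 4. The 3 added ones were Hdac8 (-0.67, adjusted P = 0.0075), Hdac10 (0.38, adjusted P = 0.0061) and Hdac11 (0.61, adjusted P = 0.010, all by limma). With median centring of the background-corrected signals 5 were called, with Hdac3 and Hdac5 added and Hdac6 lost. Hdac1, Hdac4 and Hdac9 were called lower in liver under both. Without the 2 arrays with very bright Cy5 the same 4 members were called, with Hdac1 at -1.65, Hdac4 at -0.71 and Hdac6 at 0.68. Hdac9 was at -0.80, but no liver left in that fit was well above background by its main probe. That value therefore compares colon with liver signals at background.

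**Figure D3:**
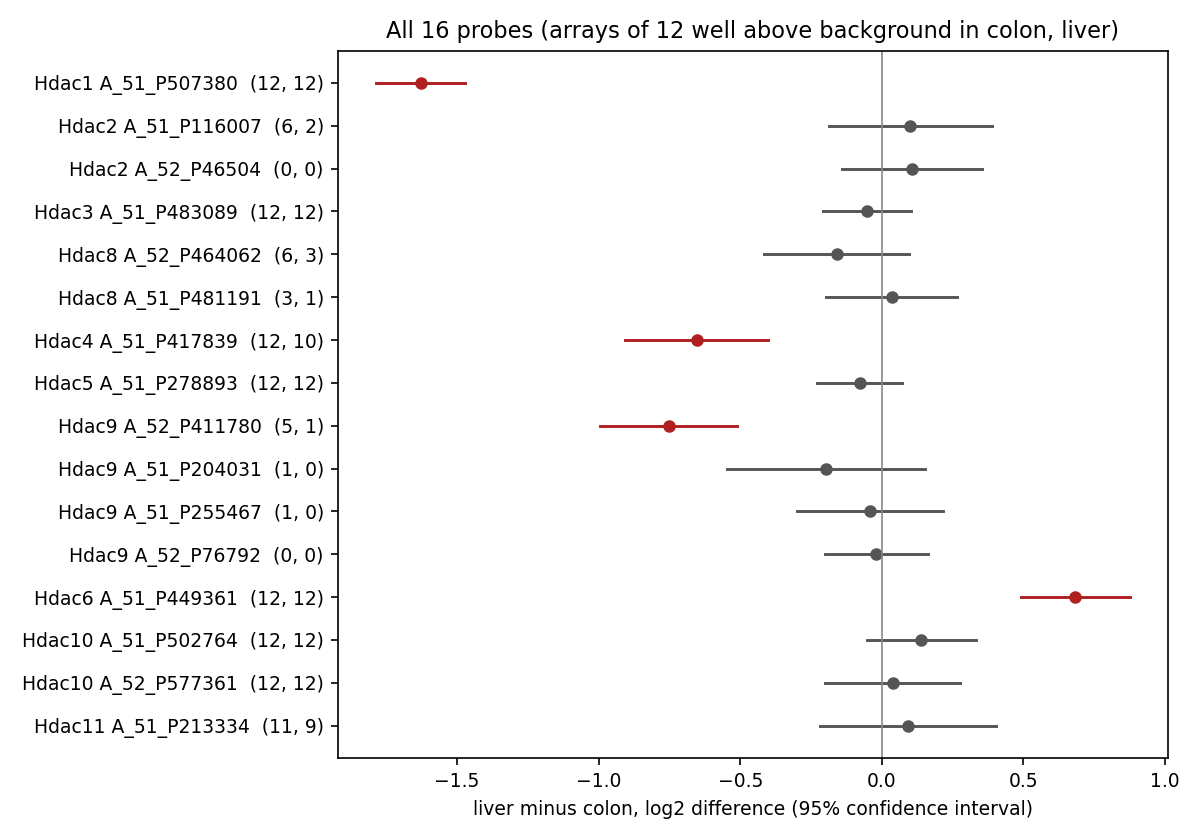
Liver minus colon, as the log2 difference with its 95% confidence interval (horizontal axis), for all 16 probes of the 10 members, red where the adjusted P was below 0.05 by limma. Numbers in brackets count the arrays of 12 on which the probe was well above background in colon and in liver; where a count is 0 the value compares signals at background. Hdac1 stands apart at -1.63, and 1 of 4 Hdac9 probes is called.

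The promoters of Hdac4 and Hdac6 are shown because these members moved in opposite directions between the tissues. RefSeq promoter sequences (build GRCm38.p6) were held for 7 of the 10 members, and entries for Hdac1, Hdac3 and Hdac10 were not matched. The 250 bases before the start site are given 5′ to 3′ on the strand of the gene. Capitals mark GC boxes (GGGCGG) and CCAAT boxes (CCAAT), each searched on both strands.
Hdac4, minus strand, chr1:92180342-92180591: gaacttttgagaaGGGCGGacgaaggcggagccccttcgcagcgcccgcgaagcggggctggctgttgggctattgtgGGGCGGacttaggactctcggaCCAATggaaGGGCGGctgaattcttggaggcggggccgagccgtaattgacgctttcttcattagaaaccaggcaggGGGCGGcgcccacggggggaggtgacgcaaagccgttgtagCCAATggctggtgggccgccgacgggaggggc
Hdac6, minus strand, chrX:7947890-7948139: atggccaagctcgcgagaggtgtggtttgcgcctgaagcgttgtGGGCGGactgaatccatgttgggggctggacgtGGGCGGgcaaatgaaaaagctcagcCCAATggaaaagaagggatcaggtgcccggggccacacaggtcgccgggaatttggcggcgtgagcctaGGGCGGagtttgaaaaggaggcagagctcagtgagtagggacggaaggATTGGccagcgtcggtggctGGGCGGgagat
Both windows held 4 GC boxes and 2 CCAAT boxes. Of 32851 RefSeq promoter windows of that length, 32.7% held a GC box, 33.8% a CCAAT box and 4.1% at least 4 GC boxes. The window of Hdac2, Hdac5 and Hdac11 held 1 GC box each, that of Hdac8 none and the 2 windows of Hdac9 none. These matches describe the letters only.

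The partners of the deacetylases were followed in lists of other chromatin genes, of which 54 were on the array. Between the tissues 8 were higher in liver and 20 lower, by the same test, against 19.4% and 19% of all probes. Of the 35 well above background on all 24 arrays 7 were higher and 15 lower, beside 41.5% and 31.4% of all probes of that brightness. Under median centring in place of loess 3 of the 54 were higher and 28 lower. In the processed signals 11 of the 54 were higher and 17 lower, and of the 35 bright ones 10 were higher and 10 lower. With the main settings, all but 1 of the corepressor subunits that passed were lower in liver, and all sirtuins that passed were higher. In the processed signals Gatad2a, Mbd3, Sap18 and Ing2 passed as higher. Those lower there were 3 in NuRD, 1 in Sin3, 6 in CoREST and 2 in NCoR/SMRT. Mbd3 was also called higher with plain background subtraction, no background correction and the Cy3 channel alone. The 5 higher calls lost under median centring were Sirt2 (-0.07), Sirt4 (0.03), Gatad2a (-0.09), Kat8 (0.09) and Mef2b (0.09). The lists and their members were chosen with results of these data known, so their counts are a description.

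In the CoREST complex, which joins Hdac1 or Hdac2 to the histone demethylase Kdm1a, all 6 genes were lower in liver, with a median difference of -0.65 against 0.02 over all probes. They were also all lower under the 5 other settings of background and scaling that were run for these lists. Rcor2 was well above background on 9 colons and 1 liver, and Rcor3 on 12 and 7. The size of the Rcor2 difference therefore rests on livers near background. The scaffold Rcor1 was 1.72-fold lower (-0.78, SE 0.12), Kdm1a 1.62-fold (-0.70, SE 0.07), Hmg20b 1.51-fold (-0.60, SE 0.17) and Phf21a 1.47-fold (-0.55, SE 0.09). In the NuRD complex, which pairs deacetylation with chromatin remodelling, 4 of 11 were lower, 1 was higher and 6 did not pass (median -0.15). The methyl-CpG binding protein Mbd2 was 1.82-fold lower (-0.87, SE 0.12), the histone chaperone Rbbp7 1.57-fold lower (-0.65, SE 0.10) and Mta2 1.3-fold lower (-0.38, SE 0.07), while Gatad2a was 1.26-fold higher (0.33, SE 0.10), though not under median centring (-0.09).

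In the Sin3 complex 3 of 8 were lower, none was higher and 5 did not pass (median -0.12), while in the processed signals 1 was lower and 2 were higher, and under median centring 6 were lower and none higher (median -0.44). Ing1, a reader of methylated histone H3, was 2.18-fold lower (-1.12, SE 0.08), Sap130 1.25-fold (-0.33, SE 0.10) and Sin3a, the scaffold, 1.22-fold (-0.29, SE 0.08). In the NCoR/SMRT complex, the partner of Hdac3, Ncor1 was 1.36-fold lower (-0.44, SE 0.12) and 4 of 5 did not pass (median -0.13). Of the MEF2 factors bound by class IIa enzymes, Mef2d was 1.59-fold lower (-0.67, SE 0.08), the dim Mef2b was higher, without passing in 3 of the 5 other settings, and 2 did not pass. Hdac7, the remaining class IIa gene, is named Hdac7a on the array and differed by -0.21 (SE 0.10, adjusted P = 0.095 by limma), and it was called lower in 4 of the 5 other settings.

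The sirtuins are deacylases that need NAD. Of 7, 4 were higher in liver, none was lower and 3 did not pass (Sirt1 at -0.11, Sirt7 at -0.19, and Sirt6, which was well above background on 1 colon and no liver), with a median of 0.37, which was 0.03 under median centring. Sirt7 was called lower with plain subtraction (-0.23), median centring (-0.53) and the Cy3 channel alone (-0.29). Sirt3, a mitochondrial deacetylase, was 3.53-fold higher (1.82, SE 0.08) and Sirt5, a mitochondrial desuccinylase, 2.13-fold higher (1.09, SE 0.10). The mitochondrial Sirt4 was 1.34-fold higher (0.42, SE 0.11) and Sirt2 1.29-fold higher (0.37, SE 0.08), neither of which passed under median centring. Of 12 histone acetyltransferases, the opposing enzymes, 2 were higher, 5 lower and 5 did not pass (median -0.20). Kat2b (Pcaf) was 2.0-fold higher in liver (1.0, SE 0.12) and Kat8 1.39-fold higher (0.48, SE 0.08, not called under median centring), whereas Crebbp was 1.51-fold lower (-0.59, SE 0.10). Kat6b, at -0.50, was well above background on 4 of 12 livers and was at -1.26 in the processed signals.

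**Figure D4:**
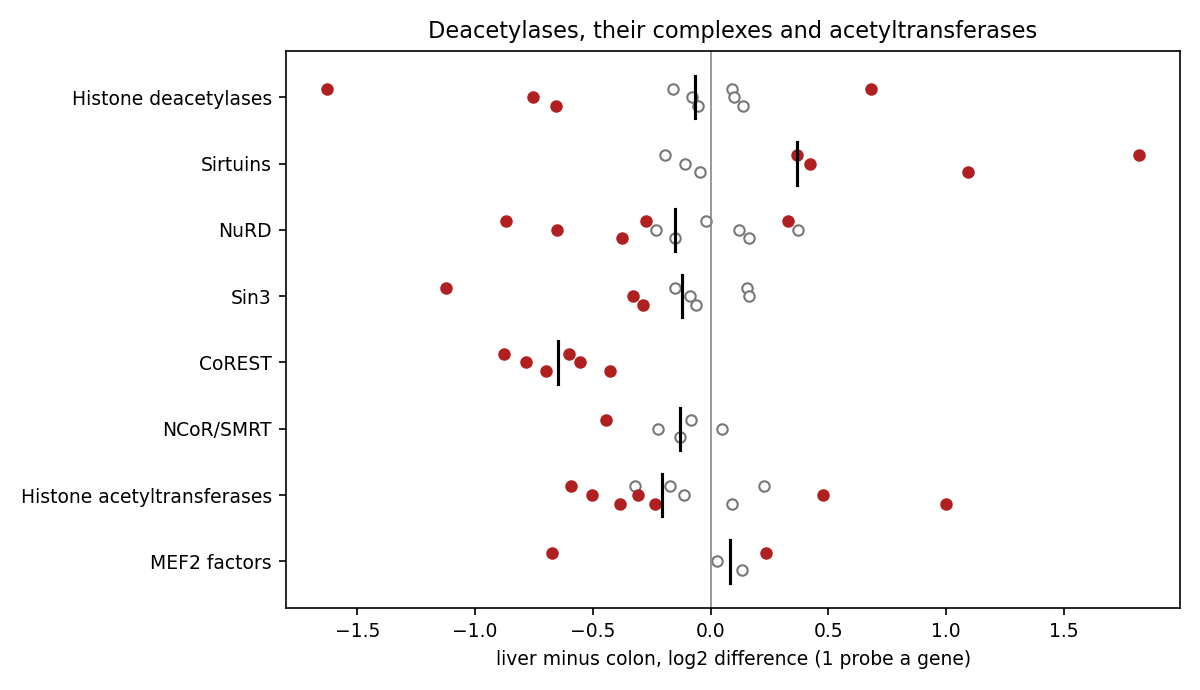
Liver minus colon as a log2 difference (horizontal axis), with 1 point per gene for the 10 histone deacetylases and for lists of sirtuins, corepressor complexes, histone acetyltransferases and MEF2 factors. Filled red points passed the test at an adjusted P below 0.05 by limma, and black bars are medians; all 6 CoREST genes lie below 0 and Sirt3 reaches 1.82.

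The second comparison was the question of the study, whether sufficient selenium and folate after weaning changed expression in offspring of dams on the low diet. No member passed the threshold of the methods (P below 0.01 before adjustment together with a change of over 1.5-fold) in colon or in liver, and none passed an adjusted P below 0.05. Of all probes, 0.168% passed that threshold in colon and 0.117% in liver. Signs are given as HF-low-suf minus HF-low-low from the dyes named in the labels, which runs opposite to nearly all of the diet changes that the study lists. Ratios turned on all arrays would turn the tissue differences as well, and with the ratios as used here the hepatocyte markers were higher in liver. If instead the diet labels were exchanged, every share of probes given here as higher would be the share lower with HF-low-suf. Every diet difference would then change sign. Why the signs differ from those of the study was not tested. The called probes were 69 in colon and 48 in liver, of which 95.7% and 83.3% were higher with HF-low-suf, against 80.8% and 100% under median centring and 83.5% and 72.3% in the processed signals. With plain background subtraction 92.4% of 79 calls in colon but 34.5% of 55 calls in liver were higher. With no background correction 100% of 13 and 83.3% of 12 calls were higher. Whether the same probes were called was not tested. Leaving out 1 array moved the 69 and 48 calls to between 23 (without HF-low-low replicate 1) and 257 (without HF-low-low replicate 5) in colon and between 9 (without HF-low-low replicate 1) and 304 (without HF-low-low replicate 3) in liver, with 0 members among them each time. After adjustment 0% of probes were called in either tissue by limma. Of 41174 probes, 1228 were at an unadjusted P below 0.05 in colon and 877 in liver. Both counts are fewer than that threshold would pick out on average without any diet difference.

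The median diet difference over the 10 members was -0.0046 in colon and 0.04 in liver. The 5 members well above background on all 24 arrays are given first. In colon the difference was 0.04 for Hdac1 (95% confidence interval -0.23 to 0.30), 0.13 for Hdac3 (-0.16 to 0.42), -0.04 for Hdac5 (-0.29 to 0.21, but -0.50 with an SE of 0.31 in the Cy3 channel alone), -0.05 for Hdac6 (-0.39 to 0.28) and -0.03 for Hdac10 (-0.35 to 0.30). In liver it was 0.08 for Hdac1 (-0.20 to 0.37), 0.04 for Hdac3 (-0.20 to 0.28), 0.07 for Hdac5 (-0.20 to 0.35), -0.01 for Hdac6 (-0.31 to 0.30) and 0.02 for Hdac10 (-0.27 to 0.31). With loess, and as ratios to the reference, none of these 10 intervals reached a change of 1.5-fold. Hdac4 differed by 0.23 in colon (-0.08 to 0.55, exact permutation P = 0.097) and by 0.08 in liver (-0.37 to 0.54), which was -0.03 without the array with very bright Cy5.

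The main probes of Hdac8 and Hdac9 came nearest to the threshold, and both are dim. Hdac8 ran from -1.43 to -0.10 in livers on HF-low-low and from -0.50 to -0.03 in livers on HF-low-suf, so that the HF-low-suf livers all lay inside the range of the others or just above it. The difference was 0.46 (95% confidence interval -0.01 to 0.92, P = 0.054 and adjusted P = 1.0 by limma), higher on 5 of 6 slides, with an exact permutation P of 0.0909. It was 0.70 on the 3 slides of one scanning day and 0.21 on those of the other, and 0.42 without HF-low-suf replicate 4, an array with very bright Cy5. The signal was well above background on 1 liver of the HF-low-low group and 2 of the HF-low-suf group. The second Hdac8 probe was not well above background on any liver of the HF-low-low group and no fold is given for it in liver.

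Hdac9 differed by -0.38 in colon (95% confidence interval -0.77 to 0.01), with an adjusted P of 1.0 by limma and an exact permutation P of 0.0671 over 924 assignments of the mice. It was lower with HF-low-suf on 6 of 6 slides. The lowest value was that of HF-low-suf replicate 5, an array with very bright Cy5, and without it the difference was -0.26. It was well above background in 2 and 3 colons of the diets. In liver the HF-low-low group was not well above background on any array by this probe, and no fold is given. Its second probe (A_51_P204031) had an unadjusted P of 0.026 for diet in liver, an adjusted P of 1.0 by limma and an exact permutation P of 0.0498, but no liver was well above background by it. Hdac2 differed by -0.10 in colon (-0.58 to 0.37) and -0.16 in liver (-0.54 to 0.23), and Hdac11 by 0.02 (-0.36 to 0.39) and -0.12 (-0.68 to 0.44). Without the array with very bright Cy5, Hdac11 was at -0.04 in colon, and the other diet differences kept their sign apart from that of Hdac4 in liver.

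**Figure D5:**
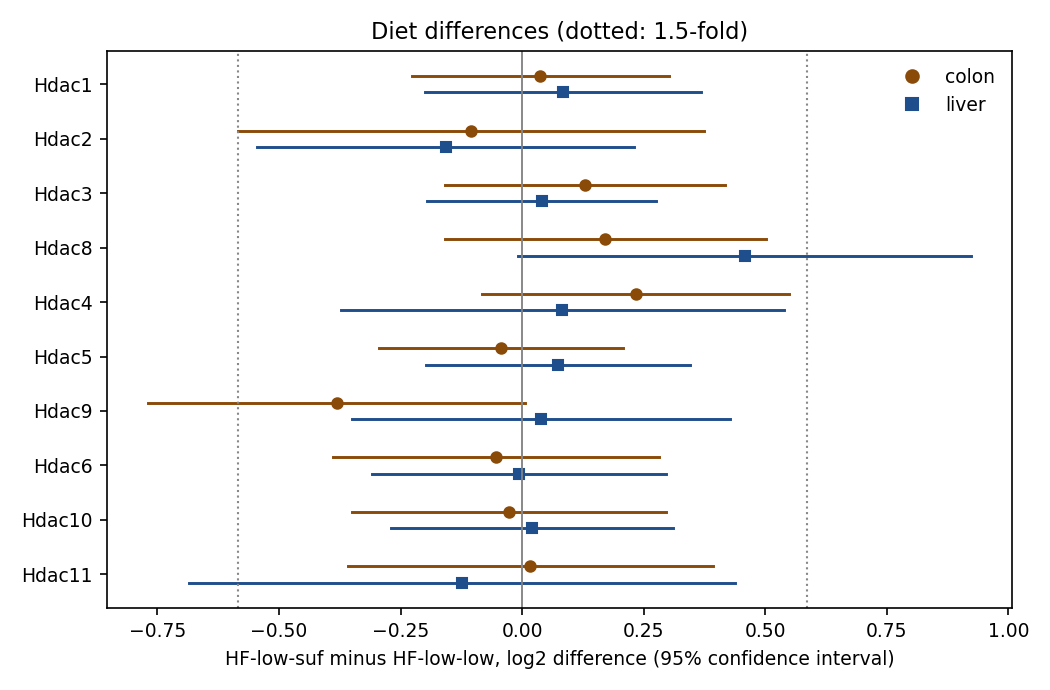
The diet difference, HF-low-suf minus HF-low-low, as a log2 difference with its 95% confidence interval (horizontal axis) for the main probe of each of the 10 members, with circles for colon and squares for liver and dotted lines at a change of 1.5-fold. All intervals include 0, and the nearest to excluding it are Hdac8 in liver at 0.46 and Hdac9 in colon at -0.38; the livers of the HF-low-low group were at background for Hdac9.

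The diet differences of the 2 tissues were compared in a single fit of all 24 arrays. No member differed between the tissues at an adjusted P below 0.05 by limma, nor did any other probe (0%), with 666 of all probes at an unadjusted P below 0.01. The differences, liver minus colon, ran from -0.15 (Hdac4) to 0.29 (Hdac8) over 9 members, and in the Cy3 channel alone that of Hdac5 was 0.51. For Hdac9 no value is given, since the livers on HF-low-low were not well above background. Of the 54 partner genes, 0 passed the threshold of the methods for diet in colon and 0 in liver.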

How the data were processed

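Gene expression was measured on 24 two-colour Agilent 60-mer arrays, 6 per tissue and diet. The authors deposited scanner intensity values, namely the raw mean signal and median local background of each spot in Cy3 and Cy5, read by Feature Extraction 9.5.3.1 with no normalization between dyes. The study used limma with loess. Flags of that software (other values) gave outliers, saturation and signal above background.

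Signals were corrected with normexp (offset 50) and loess within each array, with 1639 control spots of 45018 and outlier spots at weight 0 (limma 3.58.1, statmod 1.5.0, R 4.3.3). Log2 ratios of Cy3 to Cy5 were averaged per probe. Liver and colon were set against each other in a fit of all arrays, the mouse being a random block (correlation 0.158), and diets within a tissue over 12 arrays, by lmFit and eBayes with Benjamini-Hochberg adjustment. Single probes were also tested by exact permutation, 4096 sign flips for tissue and 924 assignments for diet, all two-sided. The replicate number marks the slide, as the files' headers show, and within a diet the mouse. P-values measure the spread between mice. All probes of the members were named, and partner genes by lists with up to 4 called genes each. These were the called genes with the largest absolute difference among probes well above background on every array of colon or of liver. Their folds are therefore among the largest of each list. The members and lists were chosen with earlier results of these data known. Probe positions are those of the files (mm7). The tests were tested on simulated data. Number of arrays limits the precision.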

Additional observations from a re-analysis of the deposited data

Results flagged for a closer look

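Of 64 sets of 6 or 5 arrays, that is 16 probes in 4 groups, 4 held a sample far from the others by Dixon's test at its 95% critical value. About 1 in 20 groups would be picked out by chance. All 4 were livers and concerned probes that were well above background on at most 1 of 12 livers. Probe A_52_P46504 of Hdac2 had a log2 ratio of -0.97 in liver HF-low-suf replicate 1, against -0.03 to 0.10 in the others of its group. Probe A_51_P481191 of Hdac8 had -0.96 in liver HF-low-low replicate 3, against -0.01 to 0.11, and -0.46 in liver HF-low-suf replicate 3, against -0.01 to 0.24. Probe A_51_P204031 of Hdac9 had 0.88 in liver HF-low-suf replicate 3, against -0.07 to 0.17. The last 3 values came from 2 arrays of the same slide. No main probe of a member was among them.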

How the results depend on the processing

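For liver against colon, 4 members were called under all but 3 of the other settings. The processed signals, median centred, called 7, median centring in place of loess 5, and the setting without dim probes 3, since Hdac9 was not tested there. Leaving out each mouse gave 4 to 4, and so did leaving out the 2 arrays with very bright Cy5, chosen after seeing the data. With the mouse or the slide as a fixed replicate block, and with no replicate block, the same 4 members were called. Hdac1, Hdac4 and Hdac9 were lower in liver under every setting that tested them, from -2.05 to -1.61, from -1.05 to -0.58 and from -2.0 to -0.26. The weakest value of Hdac9 was the mean over all its probes, which averages signals at background. Leaving that setting out, its range ended at -0.46. Hdac6 was higher in liver under each setting, from 0.28 to 0.89, and lost its call only under median centring. The diet counts stayed at 0 members in colon, in liver and in the difference between tissues under all settings, the slide as replicate block (0) included. Over all probes that block called 92 in colon and 131 in liver, against 69 and 48 without it, and same-numbered arrays of the diets deviated together with correlations from -0.38 to 0.78. No background correction called 13 and 12, median centring 26 and 2, and the setting without dim probes 3 and 2. All 24 arrays in a single fit called 53 and 144, and the Cy3 channel alone 55 and 20.

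Uncalled differences were counted as turned only where they moved by more than their standard error. In the processed signals the liver minus colon difference turned to -0.20 for Hdac2, 0.073 for Hdac3 and 0.028 for Hdac5, and the diet difference between tissues of Hdac11 to 0.18. With median centring it turned to -0.26 for Hdac10 and -0.078 for Hdac11, and the diet difference in colon to 0.14 for Hdac5 and 0.13 for Hdac10. The diet difference of Hdac9 in liver, where HF-low-low was at background, turned to -0.34 with plain subtraction and -0.22 with no background correction, values of signals at background whose sign is not read. None of these was called, and the cause was not tested. The counts of the partner lists under other settings, given above, were also chosen after seeing the data. Signal near background limited Hdac2, Hdac8 and Hdac9.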
